A study of Mus musculus with 7 samples.

Results

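Blood vessels are lined by endothelial cells, and this account follows 36 genes that mark them or serve their junctions, receptors and transcription, in basal cells sorted from mouse mammary gland. The genes were chosen from textbook endothelial markers and from genes with the smallest p in the comparison of mutant and control libraries, so that comparison is described here and not tested. Of the 36 genes, 34 have a row of their own among 56440 gene models, and all 34 passed the filter on low values that left 16889 genes. Rasip1 and Ramp2 appear only in rows shared with a second gene and are given separately.

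The 7 libraries came from basal (myoepithelial) cells of lactating glands at day 2 of lactation, freshly dissociated with trypsin, labelled and sorted by flow cytometry. There were 4 control libraries, labelled Ctrl and Blgneg, and 3 mutant libraries, labelled a3a6KO, DKO and Blgpos, and the submitters call them biological replicates. As far as the study is known, the mutants lack the laminin-binding integrin subunits alpha3 and alpha6 where a Cre recombinase is active. This Cre is driven by the beta-lactoglobulin (Blg) promoter, which is active in milk-secreting luminal cells. Whether the sorted basal cells, or any endothelial cells among them, lost the subunits was not checked here. All mutants and no controls carried Blg, so the effects of the Cre transgene and of the integrin loss cannot be told apart. The sources used here do not give the floxed alleles of the controls, the age and strain of the animals, or the antibodies and gates of the sort. Libraries held between 9368418 and 21548279 reads in genes. The 12 basal genes checked had summed values of 913021 to 1189723 in controls and 1007908 to 1124587 in mutants, most of it from Acta2 (mean 580046), while Krt14 had a mean of 50739 and Lgr5 of 62.7.

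Endothelial cells seal vessels through VE-cadherin and claudin-5, sense flow and growth factors through Tie, endoglin and sphingosine 1-phosphate receptors, and keep their identity through ETS and SOX-F transcription factors. In the lactating gland, capillaries around the alveoli deliver the nutrients for milk, among them fatty acids that lipoprotein lipase frees at the vessel wall. Endothelial cells are not basal epithelial cells, and a bulk library cannot tell more endothelial cells from more endothelial RNA per cell. In what follows, a value is a normalised read count: reads of a gene divided by the size factor of its library. A fold change is the difference of means of log2(value + 1), mutant minus control, with its standard error (SE) from limma.

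Promoter sequence was available for 15 of the 36 genes, in 20 windows from 250 bases before to 50 bases after a start site (RefSeq, GRCm38.p6). Those windows were searched on both strands for the ETS core with an adenine flank, CAGGAA, since ETS factors such as Erg bind such letters. The motif was in 13 of the 20 windows (65%), against 30.6% of all 32851 windows. Its longer form AACAGGAA, which joins a forkhead part to an ETS part and contains CAGGAA, was in 3 windows (15%), against 2.65% of all windows. The 3 windows belong to Egfl7, Emcn and Ushbp1, and Cldn5 is shown as a member whose window has neither form. Egfl7, Erg and Tal1 have several windows each among the 20, so the windows are not separate genes. The Egfl7 window at chr2:26583615-26583914 has CAGGAA without the longer form. The one at chr2:26586386-26586685 has neither, and neither of these Egfl7 windows is printed. Only the 250 bases before the start are printed, 5′ to 3′ on the strand of the gene, with CAGGAA or its reverse complement in capitals.
Egfl7 promoter, chr2:26580833-26581082, plus strand: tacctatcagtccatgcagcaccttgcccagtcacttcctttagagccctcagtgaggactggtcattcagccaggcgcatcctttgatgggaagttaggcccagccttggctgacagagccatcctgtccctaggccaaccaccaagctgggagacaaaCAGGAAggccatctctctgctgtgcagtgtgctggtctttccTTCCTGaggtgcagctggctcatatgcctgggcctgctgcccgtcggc
Emcn promoter, chr3:137340828-137341077, plus strand: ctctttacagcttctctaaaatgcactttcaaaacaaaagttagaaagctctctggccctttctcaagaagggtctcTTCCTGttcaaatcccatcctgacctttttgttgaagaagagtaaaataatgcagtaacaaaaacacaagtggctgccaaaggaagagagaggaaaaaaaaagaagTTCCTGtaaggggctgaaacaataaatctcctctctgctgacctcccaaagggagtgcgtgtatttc
Ushbp1 promoter, chr8:71395802-71396051, minus strand: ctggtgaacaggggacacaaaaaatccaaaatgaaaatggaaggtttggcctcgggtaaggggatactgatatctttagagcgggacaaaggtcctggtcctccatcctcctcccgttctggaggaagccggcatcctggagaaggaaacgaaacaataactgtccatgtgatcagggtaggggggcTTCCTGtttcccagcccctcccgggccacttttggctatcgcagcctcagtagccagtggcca
Cldn5 promoter, chr16:18776597-18776846, plus strand: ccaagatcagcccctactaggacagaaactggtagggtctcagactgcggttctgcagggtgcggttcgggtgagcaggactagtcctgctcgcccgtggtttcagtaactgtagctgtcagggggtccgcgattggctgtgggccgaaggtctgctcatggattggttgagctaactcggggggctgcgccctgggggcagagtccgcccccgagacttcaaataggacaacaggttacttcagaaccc

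The Emcn and Egfl7 stretches each hold the ETS letters at 2 places and Ushbp1 at 1. The ETS core with a cytosine flank, CCGGAA, was in none of the 20 windows and in 14.9% of all windows. The SOX letters AACAAT were in 4 windows (20%, against 10.7% of all), in Emcn, Erg, Tek and Ushbp1. The GATA letters AGATAA were in 3 windows (15%, against 11.2%) and the KLF letters CACCC in 14 (70%, against 57.5%). The E-box CANNTG was in 13 windows (65%, against 72.3%), the SP1 box GGGCGG in 5 (25%, against 35.7%) and TATAAA in 1, of Erg (5%, against 13.6%). Member windows had a median GC content of 55.3%, and all windows 52.7%. These matches describe letters and not bound sites.

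Egfl7 also hosts an endothelial microRNA, miR-126a, whose hairpin lies at chr2:26591357-26591429 on the plus strand inside the gene. Its mature arm is shown for its place in the Egfl7 locus, with the seed (bases 2 to 8) in capitals.
miR-126a-3p: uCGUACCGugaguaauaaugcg
The hairpin row held 1 read over the 7 libraries, so these libraries do not measure it, and the values for Egfl7 are those of the host gene.

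Endothelial genes had higher means in mutants in 33 of the 34 rows, with a median fold change of 0.95 on the log2 scale, while the median over all 16889 genes was -0.004. The genes were close to each other in this respect: the quartiles were 0.73 and 1.17, and 28 of the 34 lay within 0.5 of the median. The lowest was -0.24, for Ecscr, and the highest 1.52, for Cldn5. Among all genes tested, 49.5% had a fold change above 0 on the log2 scale. The 3 mutant libraries were all above the 4 controls in 20 members, against 4.00% of all genes. In limma 0 of 16889 genes passed an adjusted p of 0.05 (0%, and 0 members), and 1068 had an unadjusted p below 0.05. Of the genes, 3.55% were higher at that unadjusted level, and 26 members were among them. edgeR on the recovered reads also called 0 genes (0%), with 1025 genes and 27 members below the unadjusted level. DESeq2 on the same reads called 55 genes higher (0.369% of the 14914 with an adjusted p), 15 of them members, and 17 genes lower. Because the members were chosen from this comparison, these counts and the closeness of their fold changes say nothing further about them. DESeq2 called 5 members higher without control replicate 2, where 14 genes in all were called higher (0.0959%). Without mutant replicate 2 it called 7 members of 38 genes (0.285%), and without mutant replicate 3 it called 7 of 26 (0.174%).

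**Figure D1:**
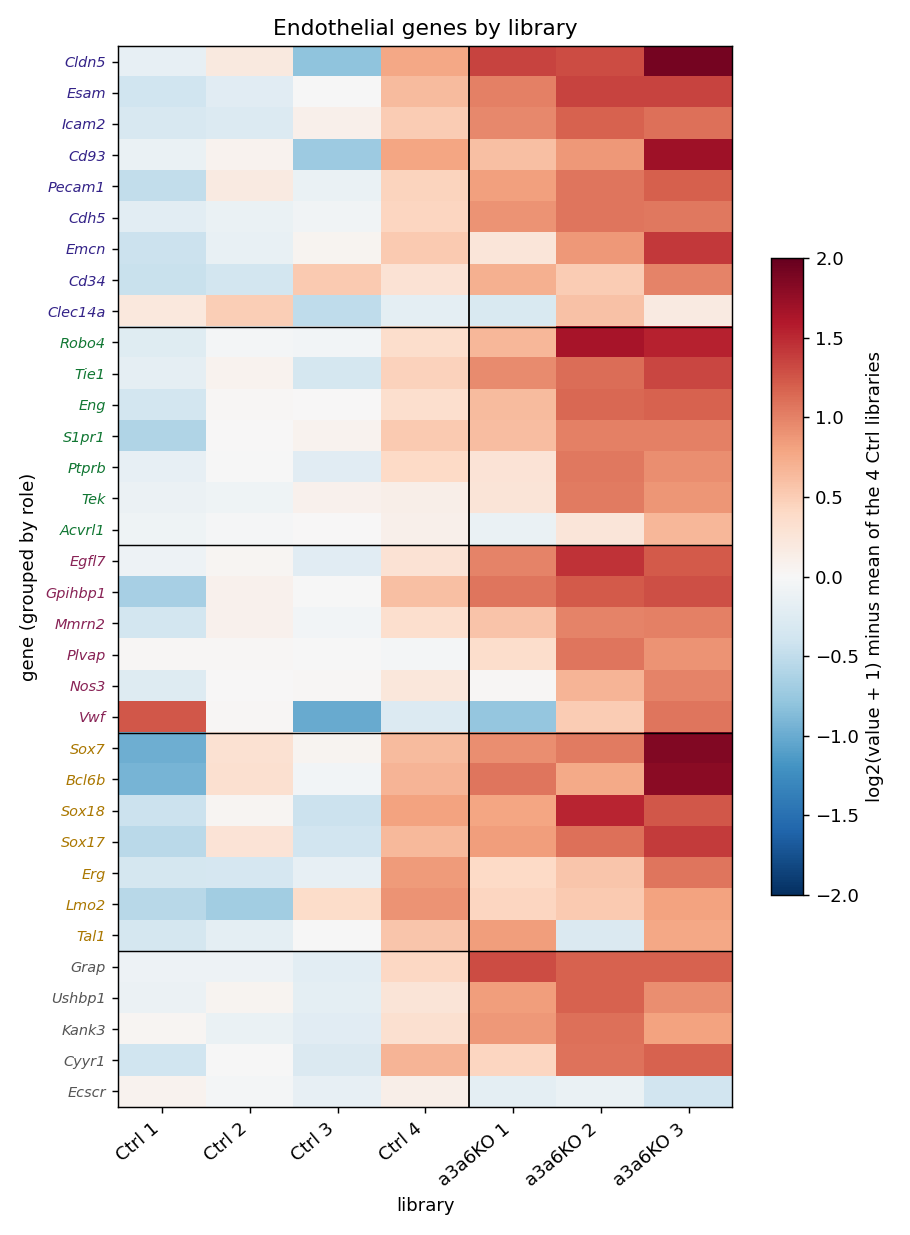
Each row is 1 of the 34 endothelial genes, grouped by role (junction and surface, receptors and phosphatase, secreted and luminal, transcription, cytoplasmic and other membrane), and each column 1 library; colour is log2(value + 1) minus the mean of the 4 Ctrl libraries, with red higher and blue lower. Control replicate 4 is mostly red among the controls, mutant replicate 1 is paler than the other mutants, and Ecscr, Clec14a, Vwf and Acvrl1 depart from the common pattern.

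Libraries of 1 group differed in their endothelial level as a whole. The median difference of the 34 genes from the control mean was -0.29, 0.0054, -0.07 and 0.44 on the log2 scale in controls 1 to 4. In mutants 1 to 3 it was 0.69, 1.06 and 1.09. By this median every mutant lay above every control, and control 4 came nearest to the mutants. Control 4 was the highest control for 30 of the 34 genes, control 1 the lowest for 21, and mutant 1 the lowest mutant for 27. Control 4 exceeded mutant 1 in 12 genes. Together the 34 genes took 0.077, 0.095, 0.081 and 0.109% of the reads in controls and 0.143, 0.192 and 0.178% in mutants. The groups did not overlap in this share, which stayed small in every library. Because the 34 genes were chosen from this comparison, the separation of the groups by this median and share is a description only. Mutants 2 and 3, with the highest endothelial values, were also the libraries with the fewest reads (10861835 and 9368418). Among controls it was the other way: control 4, with the highest median, had the most reads (21548279). Control 1, with the lowest median, had the fewest reads of the controls (14480615). The part of depth was not tested.

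The junction and surface genes build and decorate the contacts between endothelial cells. All 9 had higher means in mutants, with a median fold change of 1.03, and 5 had no overlap between groups. Over all genes tested, 49.5% were higher in mutants and 4.00% were higher without overlap. The genes of every role were chosen from this comparison, so such counts by role are a description. Cdh5 encodes VE-cadherin, the cadherin of endothelial adherens junctions, and lies at chr8:104101625-104144502. Its values were 326, 343, 359 and 508 in controls and 707, 791 and 788 in mutants, a fold change of 1.01 (SE 0.17). Every mutant exceeded every control, and the mutants lay close together. Pecam1, the adhesion molecule CD31, had values of 612, 973, 788 and 1179 in controls and 1526, 1805 and 1980.3 in mutants (1.03, SE 0.22). Esam, a tight junction adhesion molecule, had 428, 482, 564 and 875 against 1133, 1449 and 1441 (1.24, SE 0.24). In both genes control 4 stood nearest to the mutants without reaching them. Cldn5, the main claudin of endothelial tight junctions, gave 476, 615, 308 and 917 in controls and 1370.4, 1329 and 2027 in mutants. Its fold change of 1.52 (SE 0.33) was the highest of the 34 genes, and its lowest mutant lay well above its highest control. Icam2, a ligand of leukocyte integrins, had the narrower values 119, 123, 159.7 and 213 against 292, 339 and 322 (1.08, SE 0.22).

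The remaining 4 genes of this group overlapped between controls and mutants. Emcn, a sialomucin of capillary and venous endothelium, had values of 164, 199.6, 230.4 and 321 in controls and 264, 406 and 591 in mutants (0.84, SE 0.30). Cd34, a sialomucin shared with blood progenitors, had 221, 233, 435 and 367 against 494, 427 and 601 (0.74, SE 0.26). Mutant 1 fell within the controls for Emcn and mutant 2 for Cd34. Cd93 and Clec14a are related lectin-like membrane proteins that both bind multimerin-2. Cd93 had values of 123, 142, 80.8 and 235 in controls and 206, 247 and 438 in mutants (1.06, SE 0.37). Clec14a had 211, 255, 127 and 159 against 147, 274 and 205 (0.16, SE 0.29). The Clec14a groups covered the same range, and its sign reversed without control 3 (-0.016) or without mutant 2 (-0.06).

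**Figure D2:**
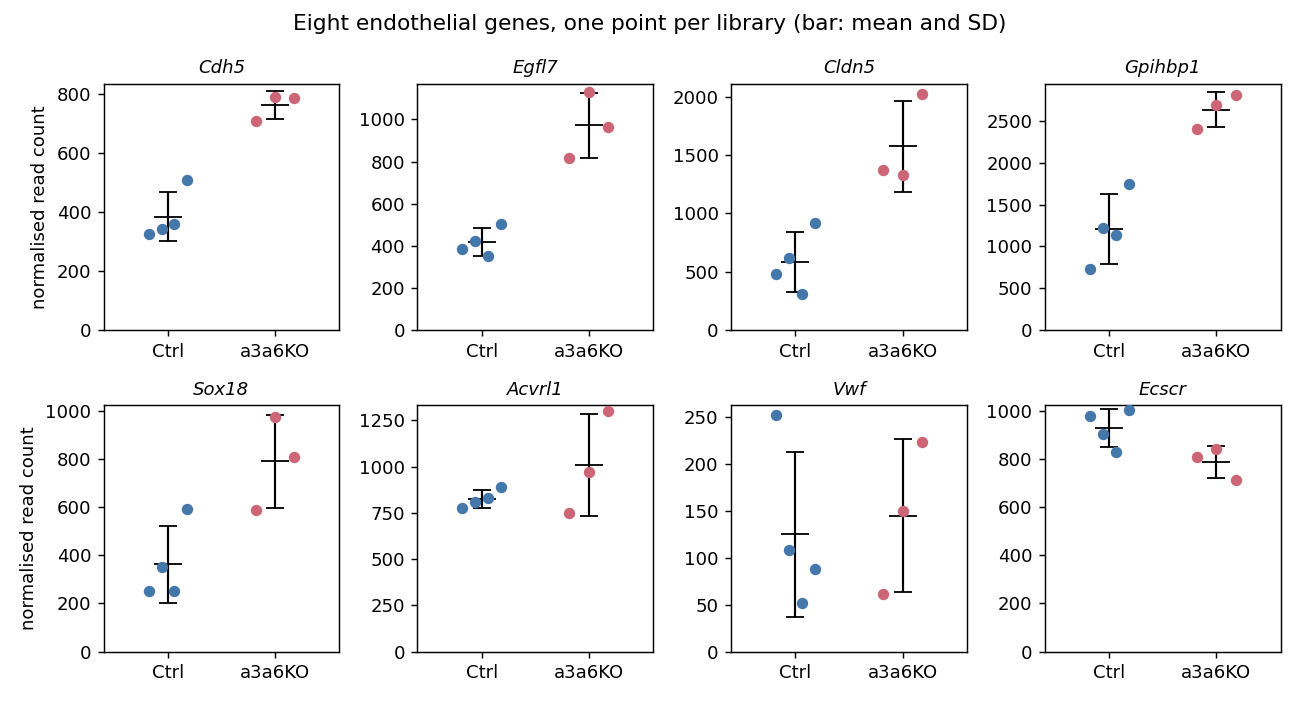
Normalised read counts (linear axes from 0) of 8 endothelial genes, with 1 point per library, 4 Ctrl and 3 a3a6KO, and bars for the mean and SD. Cdh5, Egfl7, Cldn5 and Gpihbp1 show groups that do not overlap, Sox18, Acvrl1 and Vwf show overlap, and Ecscr shows 2 of the 3 mutants below every control.

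Endothelial receptors read angiopoietins, bone morphogenetic proteins, Slit-related cues and sphingosine 1-phosphate. All 7 members of this group, which includes 1 phosphatase, had higher means in mutants (49.5% of all genes). Their median fold change was 0.88, and 5 had no overlap, against 4.00% of all genes. Tie1 and Tek are the receptor tyrosine kinases of the angiopoietin pathway, Tek being the one that binds angiopoietins. Tie1 values were 389.6, 463, 346 and 610.5 in controls and 855, 959 and 1121 in mutants (1.14, SE 0.20). Tek values were 256, 262, 296 and 301 against 333, 572 and 516 (0.73, SE 0.20). Both genes separated the groups, Tek by a narrow margin at mutant 1. Ptprb, the phosphatase VE-PTP that acts on Tek and VE-cadherin, had 179, 199.6, 172 and 266 in controls and 244, 417 and 383 in mutants (0.75, SE 0.23), and mutant 1 lay below control 4. Among 6 other tested genes of the angiopoietin pathway, 5 were higher in mutants, with a median of 0.55, and 0 passed limma. The ligand gene Angpt2 in that list had values of 54.2, 77.6, 74.4 and 113 against 127, 127 and 199 (0.92, SE 0.29).

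Eng and Acvrl1 encode endoglin and ALK1, which together receive bone morphogenetic proteins 9 and 10, and they differed from each other here. Eng values were 806, 1059, 1050.3 and 1315 in controls and 1616, 2321 and 2352 in mutants (0.99, SE 0.20). Acvrl1 values were 775, 808, 830 and 889.6 against 751, 973 and 1302 (0.25, SE 0.18). The groups were separate for Eng, while the lowest of the 7 Acvrl1 values was a mutant. Of 11 other tested genes of that pathway, 10 were higher in mutants, with a median of 0.35 and 0 passing limma. Its target Id1 had values of 213, 394, 291 and 457 in controls and 420.1, 662 and 737 in mutants (0.86, SE 0.29). Another target, Id3, had 805, 1121, 1245 and 1576 against 1613, 1689 and 2537 (0.72, SE 0.24). Both were named for their small p within this list. In the same list Id2 was at 0.08 (SE 0.21), Smad6 at 0.33 (SE 0.24), Smad7 at 0.35 (SE 0.36) and Smad4 at -0.96 (SE 0.77). Id genes are expressed in many cell types besides endothelium.

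Robo4, an endothelial member of the roundabout receptors that steadies vessels, had values of 251, 289, 286 and 378 in controls and 473, 934 and 865 in mutants. Its fold change was 1.28 (SE 0.25), the highest of the receptor group, and mutant 1 lay nearer to the controls than to the other mutants. S1pr1, the main sphingosine 1-phosphate receptor of endothelium, had 378, 574, 598 and 821 against 881, 1156 and 1144 (0.88, SE 0.24). The 9 other tested genes of the sphingosine 1-phosphate pathway had a median of 0.0044. Of them 5 were higher in mutants and 4 lower, and 0 passed limma.

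Secreted, luminal and enzyme genes serve the wall and the lumen of the vessel. All 6 had higher means in mutants (49.5% of all genes), with a median fold change of 0.81. Of the 6, 4 had no overlap, against 4.00% of all genes. Egfl7, a secreted protein of the vessel matrix at chr2:26581055-26592682, had values of 385, 422, 353 and 505 in controls and 819, 1131 and 964 in mutants (1.22, SE 0.17). Mmrn2, the matrix protein multimerin-2, had 401, 546, 495 and 651 against 765, 1022 and 1037 (0.85, SE 0.19). Gpihbp1 carries lipoprotein lipase to the capillary lumen, and its values were 724, 1214, 1138 and 1746 in controls and 2406, 2689 and 2808 in mutants (1.19, SE 0.26). All 3 genes had every mutant above every control. Plvap, which forms the diaphragms of fenestrae and caveolae, had 752, 759, 741 and 721 against 948, 1556 and 1381 (0.77, SE 0.17). Its controls lay close together (743 ± 16.5, SD, n = 4), and control 4 was the lowest of them. Nos3, the endothelial nitric oxide synthase, had 103, 124, 125 and 145 in controls and 125, 198 and 247 in mutants (0.56, SE 0.25), with mutant 1 among the controls. Vwf, the clotting factor stored by endothelium and platelets, had 252, 108, 52.3 and 87.8 against 61.3, 150.3 and 224 (0.27, SE 0.56). Control 1 was the highest of all 7 libraries for Vwf, and the fold change reversed without control 3 (-0.07) or mutant 3 (-0.14). Of 12 megakaryocyte and platelet genes 4 were tested and 3 were higher in mutants. The list had summed values of 118 to 177 in controls and 130.1 to 194 in mutants.

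The transcription factors included the 3 SOX-F genes, the ETS factor Erg, and the Tal1 and Lmo2 partners that endothelium shares with blood cells. All 7 had higher means in mutants (49.5% of all genes), with a median of 1.12. Of the 7, 3 had no overlap, against 4.00% of all genes, and none was among the DESeq2 calls. Sox7 had values of 297, 724, 607 and 907 in controls and 1123, 1209 and 2114 in mutants (1.27, SE 0.37). Sox17, a factor of arterial identity, had 151, 265, 168 and 343 against 394, 473 and 578 (1.12, SE 0.29). Sox18 had 253, 349.8, 253 and 592 in controls and 589, 974 and 808 in mutants (1.19, SE 0.31). Sox7 and Sox17 separated the groups, and for Sox18 control 4 lay just above mutant 1. Bcl6b, a zinc finger repressor, had 25.1, 61.4, 46.8 and 78.7 against 104, 83.1 and 174 (1.21, SE 0.41), also without overlap. Lmo2 had 62.3, 56.6, 119 and 172 in controls and 124, 133 and 162 in mutants (0.58, SE 0.38), with all mutants inside the control range. Erg and Tal1 were near the floor of these libraries. Erg had 8.03, 8.08, 9.18 and 19.7 in controls and 14.1, 15.8 and 23.1 in mutants (0.67, SE 0.45), from 96 reads in all. Tal1 had 10, 11.3, 12.9 and 19.7 against 24.0, 10.5 and 23.1 (0.44, SE 0.44), from 114 reads. Neither gene separated the groups, and the part of the low read numbers was not tested. Of 11 mast and blood stem cell genes only Kit was tested, and Kit is also in the luminal list used below. The mast and blood stem cell list summed to 13.7 to 56 in controls and 46.3 to 69.9 in mutants. Most of each mutant sum was Kit, at 16.1, 6.46, 30.3 and 44.6 in controls and 58, 63.3 and 33.8 in mutants. Gata1, Gfi1b, Ms4a2 and Fcer1a were at 0 everywhere. Among 17 other tested endothelial transcription factor genes, 14 were higher in mutants, with a median of 0.23 and 0 passing limma.

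Of the 5 cytoplasmic and other membrane genes, 4 had higher means in mutants (49.5% of all genes) and 3 had no overlap (4.00%). Grap, an adaptor of the Grb2 family, had values of 179.7, 179, 165 and 256 in controls and 478, 436 and 434 in mutants (1.22, SE 0.18). Ushbp1, named for binding an Usher syndrome protein, had 434, 486, 410.4 and 559.8 against 834, 1067 and 891 (0.98, SE 0.16). Kank3, an ankyrin repeat protein of the actin cytoskeleton, had 517, 456, 429 and 626 in controls and between 881 and 1072 in mutants (0.93, SE 0.16). In these 3 genes every mutant exceeded every control. Cyyr1, a small membrane protein gene, had 22.1, 29.1, 23.9 and 47.7 against 39.8, 63.3 and 67.6 (0.90, SE 0.35), with mutant 1 below control 4. Ecscr, a membrane protein that regulates endothelial chemotaxis, was the exception among the 34 genes. Its values were 977, 902, 830 and 1004 in controls and 808, 841 and 712 in mutants (-0.24, SE 0.13). Mutants 1 and 3 lay below every control and mutant 2 lay above control 3, so the groups overlapped.

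**Figure D3:**
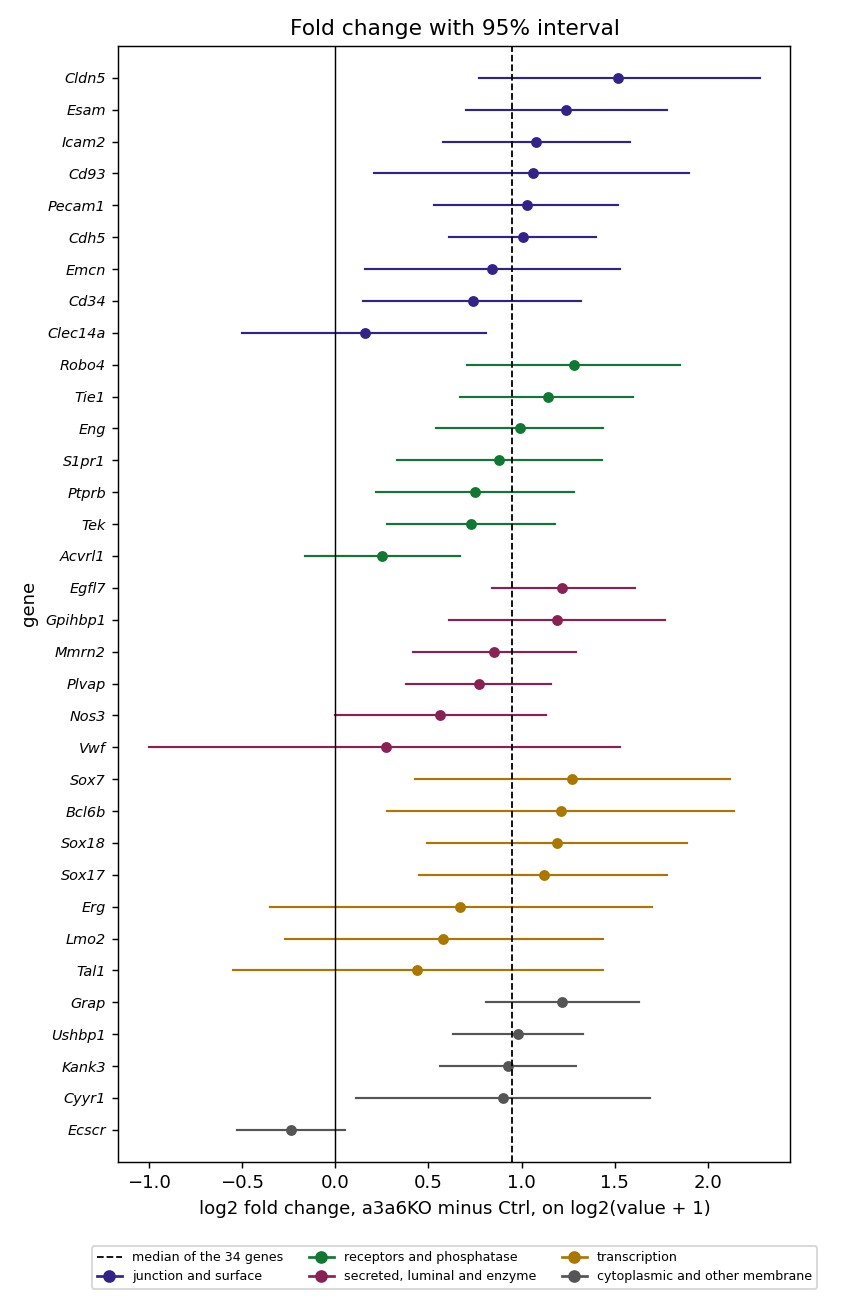
Fold change of each of the 34 endothelial genes, as mutant minus control on log2(value + 1), with its 95% interval from limma, coloured by role; the dashed line is the median of the 34 genes (0.95). Most points lie near the dashed line, the widest interval is that of Vwf, and Ecscr lies below 0.

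Per kilobase of annotated exon, Ecscr had the highest control level of the 34 genes, at 529.9 normalised reads per kb. Gpihbp1 followed at 472, Cldn5 at 409, Plvap at 374 and Eng at 261. In mutants the order was Cldn5 at 1113, Gpihbp1 at 1031, Plvap at 652 and Eng at 518 per kb, and Ecscr was in place 8 at 449. Control SDs were large beside the gaps between Ecscr, Gpihbp1 and Cldn5 (unscaled SDs of 78.3, 419.8 and 258 for means of 928, 1205 and 579), so the order of these neighbours is not firm. The lowest control levels were those of Tal1 at 3.08, Erg at 3.24 and Cyyr1 at 3.45 per kb, which were alike. Erg was thus far below Cdh5, at 91.4 per kb, although both are common endothelial markers.

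Dividing each gene by Cdh5 within its library compares the members with each other without the size factors. Icam2 kept a ratio of 0.36 to 0.45 over the 4 controls and 0.41 to 0.43 over the 3 mutants. Ushbp1 had 1.10 to 1.42 and 1.13 to 1.35, and Eng 2.47 to 3.08 and 2.29 to 2.98. In these genes the ratio was much the same in both groups. Ecscr had ratios of 2.99, 2.63, 2.31 and 1.97 in controls and 1.14, 1.06 and 0.90 in mutants. Acvrl1 had 2.38, 2.35, 2.31 and 1.75 against 1.06, 1.23 and 1.65. Both were lower in every mutant than in any control. Clec14a lay between 0.31 and 0.74 in controls and 0.21 and 0.35 in mutants, and Vwf between 0.15 and 0.77 and 0.09 and 0.28. Among the 33 genes other than Cdh5, the ratios of Ecscr and Acvrl1 were lower in mutants without overlap, as were those of 62.8% of all genes tested. The ratio of Grap was higher without overlap, by a narrow margin, as was that of 0.0533% of all genes. Since Cdh5 itself was chosen from this comparison, these ratios are a description.

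**Figure D4:**
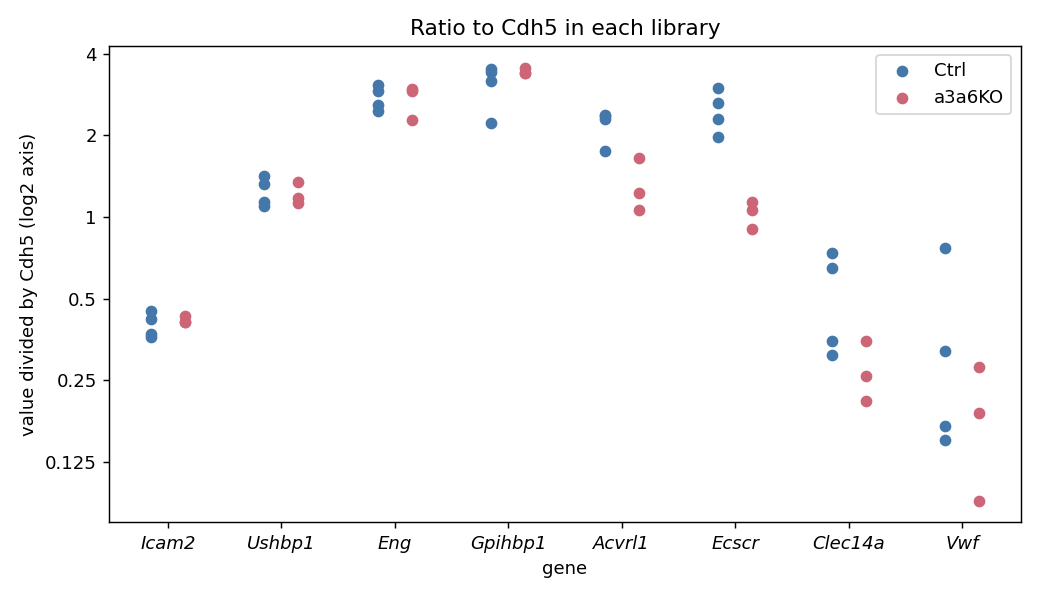
Value of 8 endothelial genes divided by Cdh5 in the same library (log2 axis), with 1 point per library, blue for 4 Ctrl and red for 3 a3a6KO. Icam2, Ushbp1 and Eng lie at the same height in both groups, and the Ecscr and Acvrl1 points of the mutants lie below all controls.

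Other genes listed for endothelium and its subtypes, none of them a member, were measured in the same libraries, and the lists were not tested against each other. Of 27 further pan-endothelial genes, 25 were higher in mutants (49.5% of all genes tested), with a median of 0.75. Of the 27, 12 were higher without overlap, against 4.00% of all genes. Sh2d3c, an adaptor protein gene, had values of 228, 208, 226 and 272 in controls and 345, 472 and 367 in mutants (0.75, SE 0.17). Of 13 capillary genes, 12 were higher in mutants, with a median of 0.81. Among them Tcf15, a transcription factor, had 63.3, 76.8, 52.3 and 88.5 against 143, 141 and 158 (1.09, SE 0.23). Of 12 arterial genes, 11 were higher in mutants, with a median of 0.64. Dll4, a Notch ligand of arteries and tip cells, had 129.5, 223, 142 and 314 in controls and 515, 523 and 916 in mutants (1.72, SE 0.34), while the netrin receptor Unc5b had 614, 570.4, 447 and 536 against 296, 313 and 445 (-0.64, SE 0.18). The 9 venous genes had a median of -0.0063, with 4 higher in mutants and 5 lower. Ackr1, of smallest p among them, had 124, 200.4, 239 and 174 in controls and 237, 318 and 488 in mutants (0.89, SE 0.29). Slco2a1, with the highest mean of that list (2370.2), was at -0.16 (SE 0.16), so the median does not describe every venous gene. Among 11 tip cell and angiogenic genes, 10 were higher in mutants, with a median of 0.25. Among 5 tested lymphatic genes the median was 0.25; Flt4, a receptor for vascular endothelial growth factors of lymphatic and other endothelium, had 41.2, 55.7, 34.9 and 96.8 against 176, 175 and 219 (1.82, SE 0.34). The lymphatic marker Prox1 was near the floor, at 2.01, 0.808, 3.67 and 4.54 in controls and 1.66, 17.1 and 1.78 in mutants, so that its higher mutant mean rests on mutant 2. Lyve1 was at 0 to 5.51 in controls and 0 to 2.64 in mutants. None of these genes passed limma; DESeq2 called 2 pan-endothelial genes (Sh2d3c among them), 2 capillary genes (Tcf15 among them), Dll4 and Flt4 higher. Since these lists share the libraries of the 34 genes, they are no separate evidence.

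**Figure D5:**
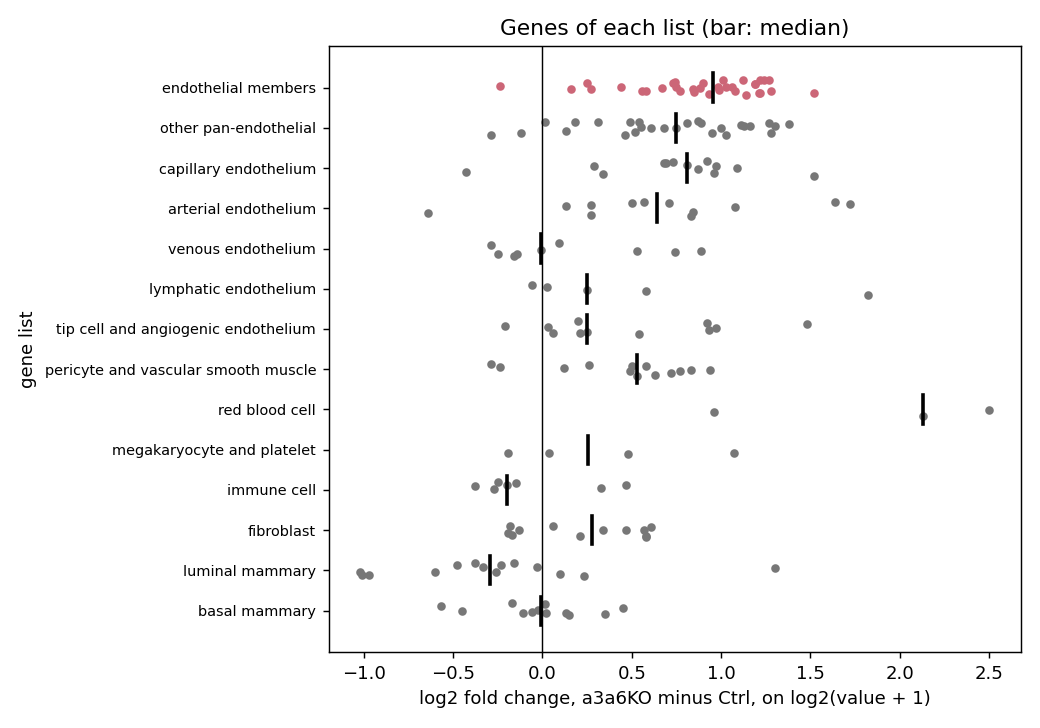
Fold change (mutant minus control on log2(value + 1)) of every tested gene of each list, with 1 point per gene and a bar at the median; the 34 endothelial genes are in red and genes of other lists, without members, in grey. The medians of the pan-endothelial (0.75), capillary (0.81) and arterial (0.64) lists lie nearest to that of the 34 genes (0.95). Those of the venous (-0.0063) and basal (-0.0054) lists lie near 0, with single venous genes on both sides.

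Markers of other cells that a sort can carry were measured in the same libraries. Of 7 red blood cell genes with a row 3 were tested, all higher in mutants, with a median of 2.13. The list had summed values of 25.1 to 359 in controls and 612 to 787 in mutants, with no overlap. Of these, Hba-a1 had 16.1, 63, 140.5 and 134 against 333, 421 and 395, while Slc4a1 was at 0 everywhere. Of the 13 tested pericyte and vascular smooth muscle genes 11 were higher in mutants, with a median of 0.53. The list had summed values of 8247 to 10411 in controls and 8178 to 10038 in mutants. Its gene of highest mean, Steap4 (4599.7), was lower in mutants (-0.29, SE 0.18). Fibroblast genes had a median of 0.27, with 8 of 12 higher in mutants and sums of 16868 to 28099 and 21383 to 31711. Dcn had the highest mean of that list (11796), with a fold change of 0.21 (SE 0.15). Immune genes had a median of -0.20, with 2 of 7 higher in mutants and sums of 398 to 2447 and 684 to 2046. Luminal genes had 3 of 14 higher in mutants, a median of -0.29 and sums of 111381 to 662134 and 83964 to 288432, with controls 3 and 4 highest. Adipocyte genes had 2 of 9 higher in mutants, a median of -1.13 and sums of 6154 to 21412 and 10793 to 22480.4. Lep, with the highest mean of that list (9437), was 1 of the 2 higher genes (0.84, SE 0.67). A sum weighs most the genes of highest value, so it can differ in direction from the median of its list. The part of these cells, and of the purity of the sort, in the endothelial values was not tested.

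For 2 members the row is shared with a neighbour, and reads of the pair cannot be told apart. The row of Rasip1, a Ras-interacting protein of vessel lumen formation, with Izumo1 had values of 157, 224, 163 and 278 in controls and 312, 377 and 436 in mutants (0.89, SE 0.23). The row of Ramp2, a partner of the adrenomedullin receptor, with Vps25 had 2542, 2348, 2362 and 2198 against 2468, 2478 and 2416 (0.06, SE 0.11). The first separated the groups and the second did not. Among 5 other tested adrenomedullin pathway genes, 4 were higher in mutants, with a median of 0.45. Some members overlap another annotated gene on the opposite strand, and the sources do not say whether the counting used strand, so those values are uncertain; reads within the shared bases were not measured. Nos3 shares 1040 of its 4132 exon bases with Gm15587 and 294 with Atg9b, Sox17 804 of 4772 with Gm37587, and Acvrl1 127 of 4265 with Gm16031. Ecscr shares 62 of 1752 exon bases with 1700066B19Rik, Kank3 88 of 3260 with Rps28, Eng 61 of 4048 with Fpgs, and Cd34 148 of 7290 with Gm16897. On the same strand, Egfl7 shares 264 of 3581 exon bases with Gm20532 and Cyyr1 165 of 8894 with Gm2541. Strand would not separate reads within those bases.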

How the data were processed

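RNA of 7 sorted libraries (4 Ctrl, 3 a3a6KO) was made into SMARTer v4 libraries, per the labels' protocols. The submitters' processing notes name STAR 2.4.0, FastQC, Picard, SAMtools, DESeq2 and the build mm10. The values the authors deposited are a normalized signal, which from the values are read counts divided by a size factor per library. Dividing by the step of each library gave whole reads for 100.0% of values in every library (tolerance 0.01); they are not length corrected, and the sources used here do not name the counter, its strand setting or filters. In the range of 1 to 20 reads, 61.8 to 63.8% of counts were even; the reason was not tested.

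The filter kept 16889 genes whose value reached 10 in 3 or more libraries. limma 3.58.1 (R 4.3.3, with trend) was fitted to log2(value + 1) over all of them; p-values are two-sided and were adjusted by Benjamini-Hochberg, with calls at 0.05. Recovered reads were fitted with edgeR 4.0.16 and DESeq2 1.42.0. The scripts were tested on simulated data. All members were named; values per library were to be given for the 3 of highest mean in each role, for the extremes and for any against the median, and are given for all but the mutants of Kank3 (a range). Genes of other lists were named among the 3 smallest p of their list, or by highest mean. Gata1, Gfi1b, Ms4a2, Fcer1a, Slc4a1, Prox1, Lyve1, Lgr5, Id2, Smad4, Smad6 and Smad7 were added after their values were seen. The members, lists and tests were chosen with earlier results of these data known. Groups come from the titles and the genotype label. p-values measure the spread between these libraries only. Exon lengths are from GENCODE M21.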

Additional observations from a re-analysis of the deposited data

Results flagged for a closer look

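For 2 of the 34 genes, 1 control library stood apart from the other 3 by Dixon's criterion. Erg had a normalised read count of 19.7 in control replicate 4, against 8.03 to 9.18 in the other controls. Grap had 256 in control replicate 4, against 165 to 179.7 in the others. With 34 groups of 4 controls tested and about 1 in 20 passing by chance, 1.7 would be expected. The mutants, with 3 libraries, were not tested this way.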

How the results depend on the processing

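Over 18 alternatives (pseudocount, filter, scaling, fit and leaving out each library) the members' median fold change ranged from 0.81 (library weights) to 1.10 (without mutant replicate 1), and the median over all genes stayed within 0.023 of 0. The count of genes past the threshold was 0 in limma and edgeR settings and 72 in DESeq2, of which 15 were members. DESeq2 fits that left out 1 library, added after the data were seen, called 5 to 19 members, among 14 to 121 genes called higher (0.0959 to 0.847% of those with an adjusted p). Of 609 values of single genes, 6 reversed, all of Clec14a or Vwf. With library weights Clec14a was -0.05 and Vwf -0.11. Leaving out 1 library, Clec14a ranged from -0.06 to 0.38 and Vwf from -0.14 to 0.79. Members without overlap numbered 20 to 28, the highest without control replicate 4, and when 1 library was left out 5.38 to 8.30% of all genes were higher without overlap (7.17% without control replicate 4). A filter at 50 left 31 members with a median of 0.99. Limits: 7 libraries, members near the floor (Erg, Tal1), and the cause of the reversals was not tested. No paired analysis was possible because the labels give no shared replicate numbers.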

Other observations

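Of 10091 genes with a mean of at least 50, those whose log2 values followed the mean of the 34 genes most closely over the 7 libraries were Plod1, Fmnl3, Tpst2, Sh3tc1, Ctla2a, Eml4, Gimap6, Sema6b, Lrrc32, Phgdh, Dll4, Ly6c1, Copg1, Cd300lg and Adgrl4, with Pearson r of 0.97 to 0.99. The 7 points are 4 controls and 3 mutants that differ in level and share size factors, so r is a description, with no test. Their fold changes ran from 0.20 (SE 0.11) for Copg1, a coat protein of the secretory pathway, to 1.72 (SE 0.34) for Dll4. Lrrc32 had values of 237, 464, 297 and 792 in controls and 744, 1241 and 2039 in mutants (1.62, SE 0.44), with mutant 1 below control 4. Adgrl4, an adhesion receptor of endothelium, had 216, 334, 339 and 493 against 593, 669.8 and 973 (1.13, SE 0.28), with no overlap. Gimap6 had 284, 334, 372 and 542 against 680.2, 835 and 895 (1.10, SE 0.22), also with no overlap.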
